A study of Mus musculus with 13 samples.

Results

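The BCL2 family members Mcl1, Bcl2, Bcl2l1, Bcl2l11, Bmf, Bbc3, Pmaip1, Bid and Bad were followed in C2C12 cells through the first 6.0 h after serum was given back. C2C12 is an established line of mouse muscle precursors (myoblasts). Cells in parallel flasks had been kept in medium with 0.2% foetal bovine serum (FBS) for 24 h, then received medium with FBS again, and total RNA was put on 1 Affymetrix mouse expression array per time point, every 0.5 h. The study searched this time course for genes that oscillate, in connection with somite formation. All 13 arrays come from the same line and the same serum protocol. By labelled time, 1 array was taken at 0 h, 4 arrays form an early window (0.5 to 2.0 h), 4 a middle window (2.5 to 4.0 h) and 4 a late window (4.5 to 6.0 h); later times were not analysed here. A probe set was taken as a member's when its annotation names that gene and no other. Of 10 listed genes, 9 were measured, by 30 of 45037 probe sets: 6 for Mcl1, 5 each for Bcl2 and Bcl2l11, 4 for Bcl2l1, 3 each for Bmf and Bid, 2 for Bad, and 1 each for Bbc3 and Pmaip1. Bax was not analysed here. The value of a gene is its log2 ratio, averaged over its probe sets, and the whole table held 18193 genes.

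Proteins of the BCL2 family control whether the outer membrane of mitochondria is opened, which releases cytochrome c and starts the caspase cascade of apoptosis. Pro-survival members (MCL1, BCL2 and BCL-xL, the main product of Bcl2l1) hold the pore-forming effectors in check. BH3-only members carry a single short helix of the family, the BH3 domain, with which they occupy the pro-survival proteins, and some also activate the effectors directly. In many cell types growth factors keep BH3-only proteins low or inactive, and loss of serum releases several of them.

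The deposited values are ratios to a separate reference value of each probe set, so a log2 ratio of 0 is that probe set's reference and levels cannot be compared between genes. For 27 of the 30 member probe sets exactly 1 array stood at a ratio of 1. Each array was centred close to 1, with medians of 0.977 to 1.00, and arrays of a window scattered around their mean with a residual SD of 0.102 (log2) for the median gene. The number of arrays limits the precision. No time point was repeated, so p-values measure the spread between flasks taken at different times of a window, including real change within it. The SD of log2 ratios over probe sets was largest on the 0 h array (0.318), followed by 0.5 h (0.299). The control for the 5′ part of 18S ribosomal RNA had ratios of 0.849 at 0 h, 0.411 to 1.40 on early arrays, 0.397 to 2.14 on middle arrays and 0.889 to 5.24 on late arrays. In bulk RNA, fewer cells of a type and less RNA per cell cannot be told apart. Whether the cells held myoblast or other markers could not be checked, since ratios carry no level.

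Among the 9 members Pmaip1 and Bid had the widest spans over the 6.0 h. In at least 1 of 5 comparisons of windows, 5 of 6 BH3-only genes and 1 of 3 pro-survival genes passed the test, beside 40.8% of all genes; the difference between the classes was not tested, and the Bad and Bcl2l11 calls were lost in most alternatives. The test was limma's moderated test over all genes, with a Benjamini-Hochberg adjusted p under 0.05. Early against 0 h, 0 of 9 members were called, beside 3.26% of all genes (1.46% higher, 1.81% lower); unadjusted p was under 0.05 for 2 members, Mcl1 and Bmf. Middle against early, 2 of 9 were called, both lower, beside 22.2% of all genes (7.74% higher, 14.4% lower). Late against middle, 2 of 9 were called, both higher, beside 12.3% (10.3% higher, 2.06% lower). Late against early, 3 of 9 were called, 1 higher and 2 lower, beside 21% of all genes (11.7% higher, 9.29% lower). Late against 0 h, 3 of 9 were called, again 1 higher and 2 lower, beside 18.7% (8.8% higher, 9.9% lower). A smooth course over time, fitted as a curve through all 13 arrays, was called for 5 of 9 members, against 38% of all genes. With 9 genes these counts lie near the shares of all genes, and what follows concerns single members. Over the 13 arrays the members' log2 values spanned a median of 0.64, against 0.45 for all genes.

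In the same fits on single probe sets, 1 of 30 member probe sets was called early against 0 h (3.02% of all probe sets), 6 middle against early (18%), 3 late against middle (9.41%), 6 late against early (15.3%) and 5 late against 0 h (14.7%). A smooth course was called for 15 of 30 member probe sets (30.7% of all probe sets). The balance of calls over the whole table depended on scaling in some comparisons. Late against middle, 1866 genes were higher and 374 lower, but 1665 and 747 after quantile normalization and 1382 and 536 after centring each array on its median. Early against 0 h, 265 were higher and 329 lower, but 38 and 7 after quantile normalization.

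**Figure D1:**
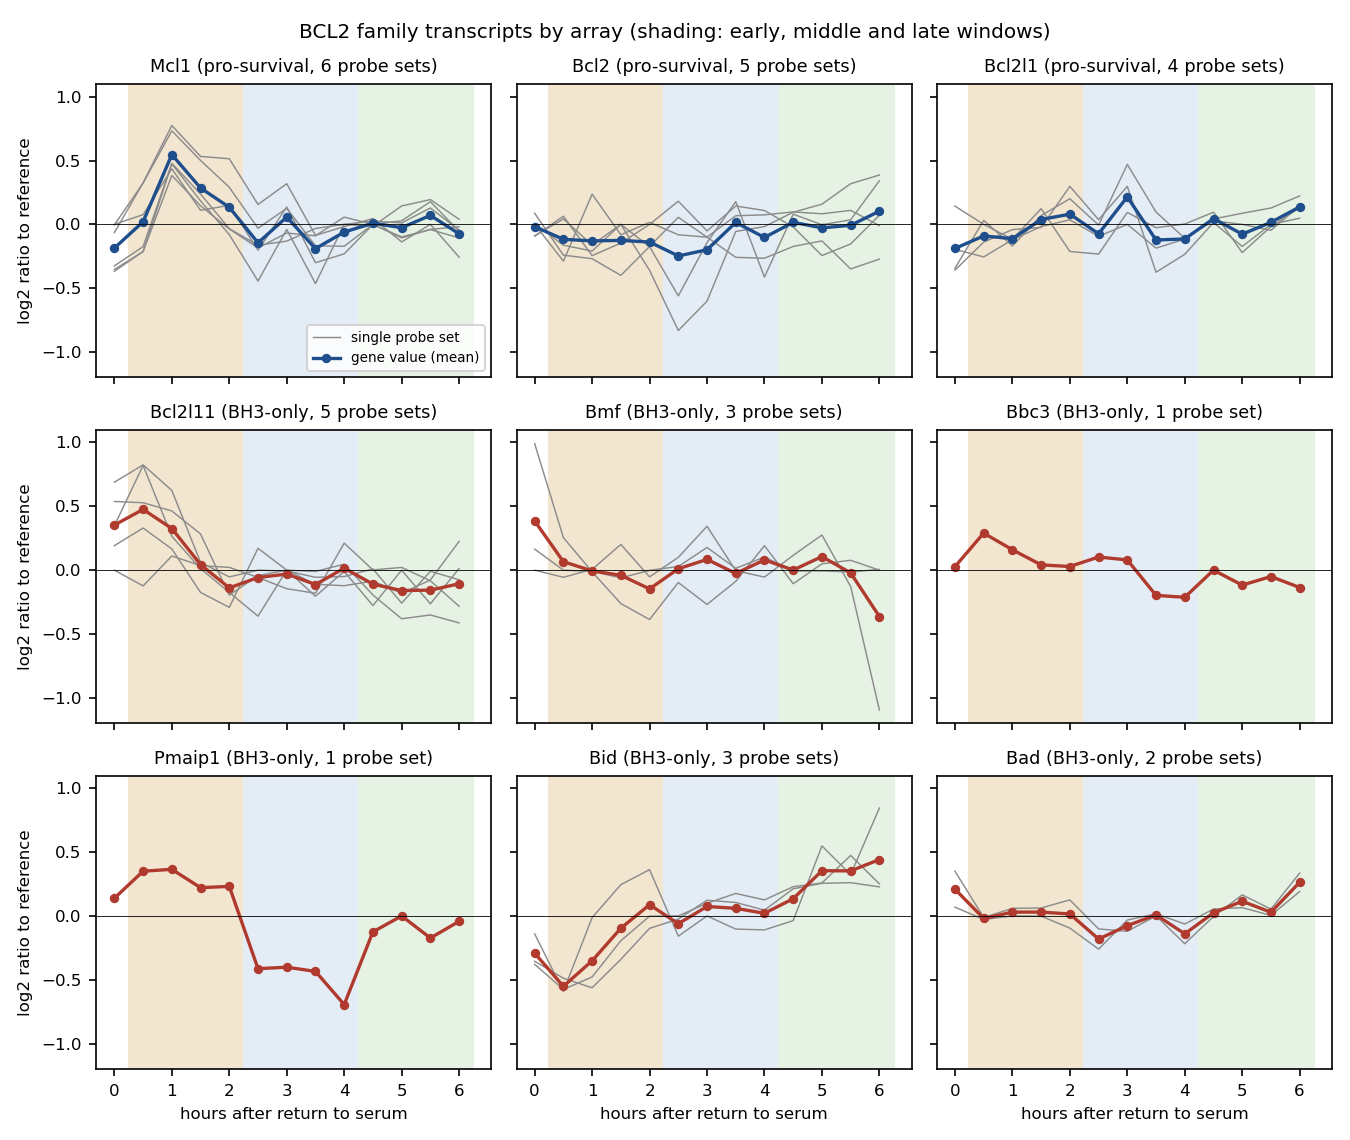
Log2 ratio (vertical axes, each relative to the probe set's own reference) against hours after serum return (horizontal axes) for the 9 measured members; coloured lines are gene values, blue for pro-survival and red for BH3-only members, grey lines single probe sets, and shading marks the early, middle and late windows. Mcl1 stands highest at 1.0 h, Pmaip1 lies low from 2.5 to 4.0 h, Bcl2l11 is high up to 1.0 h, and Bid is lowest at 0.5 h and highest at 6.0 h.

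Among the pro-survival genes, only Mcl1 passed any test at the level of the gene. Mcl1 encodes a short-lived protein whose mRNA is known to respond quickly to growth factors. Its log2 ratio was -0.19 at 0 h. The early arrays gave 0.020, 0.55, 0.28 and 0.13 at 0.5, 1.0, 1.5 and 2.0 h, the middle arrays -0.14, 0.057, -0.19 and -0.061, and the late arrays 0.0092, -0.026, 0.070 and -0.074. All early arrays lay above the 0 h array, and the 1.0 h array, 1.66-fold over 0 h, was the highest of the 13 in the gene value and in all 6 probe sets. Early minus 0 h was 0.43 ± 0.15 (SE), which missed the threshold (adjusted p = 0.120).

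In the middle window Mcl1 averaged -0.085 ± 0.11, against 0.25 ± 0.23 in the early window (SD, n = 4 each), and fell by 0.33 ± 0.09 (SE; limma adjusted p = 0.0215), although the windows overlapped. Of its 6 probe sets, 3 fell in that comparison, by 0.34 to 0.52, and the other 3 had negative differences. Those that fell were 1416880_at, 1416881_at and 1448503_at; the remaining probe sets have names ending in _x_at, which Affymetrix gives to probe sets that may also detect other transcripts. Late minus early was -0.25 ± 0.09 (adjusted p = 0.0740) for the gene, while 1416881_at fell by 0.62 and 1448503_at by 0.50. The gene's middle-against-early call was lost without the 1.0 h or the 3.5 h array (adjusted p = 0.0563 to 0.0645), with other window edges (0.0829) and with the median over probe sets (0.0795). A smooth course was called (F = 5.74, adjusted p = 0.0190), and not without any 1 of the arrays at 0, 0.5, 1.0 or 1.5 h (0.0571 to 0.102), with 3 degrees of freedom (0.285), as a straight line (0.527) or with the median over probe sets (0.0823). Without the _x_at probe sets, late minus early was -0.46 and was called (0.00241). Without the 0.5 h array, early against 0 h (0.0352) and late against early (0.0188) were also called.

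Bcl2, which gives the family its name, varied little in the gene value, the mean of its 5 probe sets. That mean spanned 0.35 on the log2 scale, and 27.9% of genes spanned less. It stood at -0.018 at 0 h. The early arrays gave -0.12, -0.13, -0.13 and -0.14, the middle arrays -0.25, -0.20, 0.015 and -0.10, and the late arrays 0.016, -0.027, -0.0078 and 0.10. Late minus early was 0.15 ± 0.06 (adjusted p = 0.0955), with every late array above every early one, and late minus middle was 0.15 ± 0.06 (adjusted p = 0.106). Its 5 probe sets moved differently, with pairwise Pearson correlations over the 13 arrays from -0.52 to 0.72. The probe set 1457687_at stood at 0.0072 at 0 h and then at -0.16, -0.21, 0 and -0.36 on early arrays, -0.83, -0.60, -0.056 and -0.017 on middle arrays, and 0.095, 0.16, 0.32 and 0.39 on late arrays. It rose by 0.62 late against middle (adjusted p = 0.0188 over all probe sets), and its smooth course was called (adjusted p = 0.00111). At the gene level late against middle was called without the 3.5 h array (0.0371) or without the _x_at probe set (0.0309), and late against early with the median over probe sets (0.0153).

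Bcl2l1 encodes BCL-xL and, by another splice form, the death-promoting BCL-xS. Its values were -0.19 at 0 h, -0.091, -0.11, 0.037 and 0.080 on early arrays, -0.074, 0.22, -0.12 and -0.11 on middle arrays, and 0.045, -0.077, 0.016 and 0.14 on late arrays. Every later array lay above 0 h, but no window comparison passed. Late minus 0 h, the largest of its differences, was 0.22 ± 0.12 (adjusted p = 0.252). The windows from early to late overlapped, and its 4 probe sets peaked at 4 different times, 0, 2.0, 3.0 and 6.0 h.

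Of the BH3-only genes, 3 were called late against the single 0 h array, whose spread is borrowed from the other windows: Bid higher, and Bcl2l11 and Bmf lower. These calls held in 18 of 19 alternatives for Bid, 14 of 19 for Bmf and 6 of 19 for Bcl2l11. The promoter windows of these genes, from 250 bases before to 50 after a transcript start, are given from RefSeq on mouse build GRCm38.p6, to set their sequences beside these 3 courses. The Bcl2l11 window lies on the plus strand at chr2:128125788-128126087, that of Bmf on the minus strand at chr2:118549637-118549936, and that of Bid on the minus strand at chr6:120916775-120917074. Capitals mark the motifs found by exact search on both strands.
Bcl2l11: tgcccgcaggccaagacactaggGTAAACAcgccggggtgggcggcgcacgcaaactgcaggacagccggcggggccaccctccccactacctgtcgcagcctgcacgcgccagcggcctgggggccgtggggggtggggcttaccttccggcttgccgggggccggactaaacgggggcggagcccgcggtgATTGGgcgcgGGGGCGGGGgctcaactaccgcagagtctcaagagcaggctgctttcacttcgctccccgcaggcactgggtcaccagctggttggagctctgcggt
Bmf: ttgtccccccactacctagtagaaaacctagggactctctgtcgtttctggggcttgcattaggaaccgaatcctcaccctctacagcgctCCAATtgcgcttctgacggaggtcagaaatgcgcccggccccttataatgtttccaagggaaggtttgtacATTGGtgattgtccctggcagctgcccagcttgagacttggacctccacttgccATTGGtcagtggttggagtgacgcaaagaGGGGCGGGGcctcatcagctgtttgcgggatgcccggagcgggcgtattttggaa
Bid: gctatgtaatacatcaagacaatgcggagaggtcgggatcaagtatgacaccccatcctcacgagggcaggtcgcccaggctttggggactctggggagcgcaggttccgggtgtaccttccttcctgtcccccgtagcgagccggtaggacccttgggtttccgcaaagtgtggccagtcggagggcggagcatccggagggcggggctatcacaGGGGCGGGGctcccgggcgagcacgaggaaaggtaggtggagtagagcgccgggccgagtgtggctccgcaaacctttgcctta

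The motifs searched were the E-box CACGTG, the cyclic AMP response element TGACGTCA, the AP-1 site TGANTCA, the FoxO site GTAAACA, the serum response CArG box, the CCAAT box CCAAT and the GC box GGGGCGGGG. The Bcl2l11 window held a FoxO match at position -227 from the start, a CCAAT match on the other strand at -57 and a GC box at -47. The Bmf window held CCAAT matches at -159, -88 and -34, the last 2 on the other strand, and a GC box at -5. The Bid window held only a GC box, at -34.

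Of 32851 windows of this length in the table, 3.65% held the FoxO site, 37.4% the CCAAT box and 11.4% the GC box, while 7.15% held the E-box, 1.79% the cyclic AMP response element, 7.81% the AP-1 site and 1.63% the CArG box. Windows were used for 8 members, 16 in all: 2 of Bcl2l11, 3 of Bmf and 1 of Bid among them. The windows shown for Bcl2l11 and Bmf were picked for their matches. The other Bcl2l11 window held CCAAT matches at -106 and -74, but no FoxO match and no GC box. Of the other Bmf windows, 1 held a CCAAT match at -244 and 1 held no match. Among the windows of other members, 1 of the 3 of Bbc3 held a FoxO match, at -167, and the single Mcl1 window held none of the 7 motifs. A match is only a match of letters.

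Bcl2l11 encodes BIM, a BH3-only protein that binds all pro-survival members and whose gene is a known target of FoxO transcription factors when growth factors are lacking. It was high at first and low from 2.0 h on. It stood at 0.35 at 0 h. The early arrays gave 0.48, 0.33, 0.043 and -0.14, the middle arrays -0.058, -0.031, -0.11 and 0.015, and the late arrays -0.11, -0.16, -0.16 and -0.11. The first 3 arrays, up to 1.0 h, were above all later ones, and at 2.0 h the gene already lay 1.41-fold under 0 h, close to the 1.43-fold of the 5.0 h array.

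Late against early, Bcl2l11 averaged -0.13 ± 0.029 in the late window and 0.18 ± 0.28 in the early window (SD, n = 4 each). It fell by 0.31 ± 0.10 (SE; limma adjusted p = 0.0411), with overlap at 2.0 h. It fell by 0.49 ± 0.16 late against 0 h (adjusted p = 0.0469). The smooth course was called (F = 11.2, adjusted p = 0.00152), and it held in every alternative run. All 5 probe sets were lower late than early, by differences from -0.45 to -0.097, and 3 of 5 were highest at 0.5 h. Of the rest, 1426334_a_at was highest at 0 h and 1456006_at at 4.0 h. Both window calls were close to the threshold. Late against early was lost without any 1 of 9 arrays (0.5, 1.0, 2.5, 3.0, 3.5, 4.5, 5.0, 5.5 or 6.0 h; adjusted p = 0.0511 to 0.122), without the 4 middle arrays (0.0813) and with the median over probe sets (0.102). Late against 0 h was lost without any 1 of 9 (1.5 h and every array from 2.5 to 6.0 h; 0.0501 to 0.0784), without the 4 middle arrays (0.0860), after quantile normalization (0.0805) or centring (0.0504), and with the median over probe sets (0.0832). Middle against early was called without the 2.0 h array (0.0125) or with other window edges (0.0191).

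Bmf encodes a BH3-only protein that is held at the cytoskeleton in healthy attached cells. Its value was 0.39 at 0 h, 0.066, -0.0058, -0.040 and -0.15 on early arrays, 0.011, 0.084, -0.026 and 0.080 on middle arrays, and 0.0010, 0.11, -0.022 and -0.36 on late arrays. The 0 h array was above all 12 others. Bmf fell by 0.45 ± 0.13 (SE) late against 0 h (limma adjusted p = 0.0302), and early minus 0 h was -0.42 ± 0.13 (adjusted p = 0.102).

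The 3 Bmf probe sets did not move together. The 0 h value came mainly from 1454880_s_at, whose log2 ratio was 0.99 at 0 h, then 0.25, -0.013, -0.26 and -0.39 on early arrays, between -0.27 and 0.19 on middle arrays and between -0.11 and 0.077 on late arrays. It fell by 1.09 ± 0.19 early against 0 h (adjusted p = 0.00979 over all probe sets) and by 0.99 late against 0 h. The 6.0 h value came from 1458325_x_at, which read -1.10 there and between -0.13 and 0.34 on the other arrays. The gene's late-against-0 h call was lost without the _s_at and _x_at probe sets (difference -0.17, adjusted p = 0.162), with the median over probe sets (-0.16, 0.217), after quantile normalization (-0.33, 0.167), with other window edges (-0.42, 0.0536) and without the 4 middle arrays (0.0581). Its smooth course (F = 7.46, adjusted p = 0.00764) was lost without the 0 h array (0.0662), without the _s_at and _x_at probe sets (0.245), as a straight line (0.170) and with the median over probe sets (0.293). In contrast, early against 0 h was called without the 6.0 h array (0.0337).

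**Figure D2:**
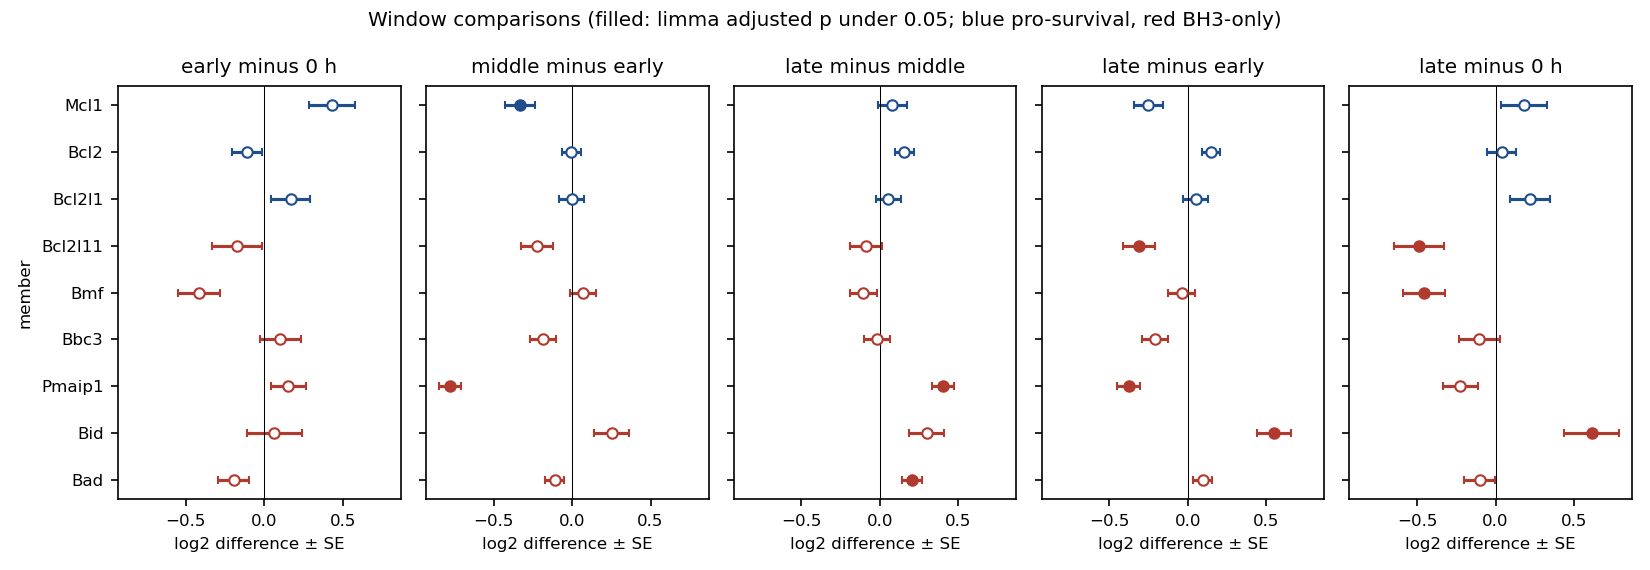
Log2 difference between windows (points, with SE as bars) for the 9 measured members in each of the 5 comparisons; filled points passed the adjusted p of 0.05. The widest call is the Pmaip1 difference of -0.78 middle against early, and Bid is called at 0.55 late against early and at 0.61 late against 0 h.

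Pmaip1 encodes NOXA, which binds chiefly MCL1 and promotes its breakdown. Of all members it had the widest span, 1.06 on the log2 scale or 2.08-fold, and 95.1% of genes spanned less. Its 1 probe set read 0.14 at 0 h. The early arrays gave 0.35, 0.37, 0.22 and 0.23, the middle arrays -0.41, -0.40, -0.43 and -0.69, and the late arrays -0.12, 0, -0.17 and -0.042. The 3 windows did not overlap: every early array was above every late one, and every late one above every middle one. At 4.0 h it lay 1.78-fold under 0 h.

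Pmaip1 averaged -0.49 ± 0.14 in the middle window and 0.29 ± 0.076 in the early window (SD, n = 4 each), and fell by 0.78 ± 0.07 (SE; limma adjusted p = 7.58e-05). Late against middle it rose by 0.40 ± 0.07 (adjusted p = 0.00395), to a late mean of -0.085 ± 0.078, against the middle mean of -0.49 ± 0.14. Late against early it fell by 0.38 ± 0.07 (adjusted p = 0.00151), a call that held in every alternative run. Late minus 0 h was -0.22 ± 0.11 (adjusted p = 0.190). A smooth course was called (F = 15.8, adjusted p = 3.37e-04) but no straight line (0.127). The dip rests on the edges at 2.0 to 2.5 h and 4.0 to 4.5 h: with the 2.0 h array counted as middle and the 4.0 h array as late, middle minus early was -0.57 (adjusted p = 0.0517) and late minus middle 0.047 (0.908). Across all genes the windows failed to overlap for 23% middle against early, where 1 of 9 members, Pmaip1, was among them, and for 19.5% late against middle, where 3 of 9, Pmaip1, Bid and Bad, were higher.

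Bid links death receptors to mitochondria, because caspase cleavage turns its protein into an active fragment. It was lowest on the 3 arrays on which Bcl2l11 was highest. It stood at -0.29 at 0 h. The early arrays gave -0.55, -0.35, -0.097 and 0.088, the middle arrays -0.061, 0.074, 0.060 and 0.021, and the late arrays 0.14, 0.35, 0.35 and 0.44. The lowest array was that of 0.5 h, and each late array was above all earlier ones. At 6.0 h Bid stood 1.66-fold over 0 h.

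Bid averaged 0.32 ± 0.13 in the late window and -0.23 ± 0.28 in the early window (SD, n = 4 each), and rose by 0.55 ± 0.11 (SE; limma adjusted p = 0.00245), which held in every alternative run. Late against 0 h it rose by 0.61 ± 0.17 (adjusted p = 0.0255), and this call was lost without the 4 middle arrays (0.0548). The smooth course was called (F = 16.7, adjusted p = 2.65e-04) and also held throughout. Late minus middle was 0.30 ± 0.11 (adjusted p = 0.0948), called without the 0.5 h (0.0376) or the 2.0 h array (0.0438).

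The probe sets 1417045_at and 1448560_at rose middle against early, by 0.43 and 0.41, and late against early, by 0.61 and 0.62. The third probe set, 1447873_x_at, was 0.36 at 2.0 h, between -0.16 and 0 on middle arrays and 0.85 at 6.0 h. Without it the gene's middle-against-early difference was 0.42 (adjusted p = 0.00507), against 0.25 ± 0.11 (0.118) with all 3; that comparison was also called with the median over probe sets (0.0165) and without the 2.0 h array (0.0181). In the late window, where Bid was highest, the 5′ 18S control had ratios of 0.889, 3.92, 2.67 and 5.24, against 0.411 to 1.40 in the early window. The 3′ 18S control moved less, with 0.949, 1.50, 1.49 and 1.57 on late arrays and 0.731 to 1.035 on early ones. Markers of differentiated muscle were also higher there. The part of the 18S shift and of these markers in the Bid differences was not tested.

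Bad encodes a BH3-only protein that growth factor signals inactivate by phosphorylation. Its values were 0.21 at 0 h, -0.020, 0.030, 0.030 and 0.015 on early arrays, -0.18, -0.076, 0.0086 and -0.14 on middle arrays, and 0.025, 0.11, 0.029 and 0.26 on late arrays. It averaged 0.11 ± 0.11 in the late window and -0.097 ± 0.083 in the middle window (SD, n = 4 each), and rose by 0.21 ± 0.06 (SE; limma adjusted p = 0.0443), without overlap. Neither of its 2 probe sets passed alone. The call was lost without any 1 of 9 arrays (1.0, 1.5, 2.0, 2.5, 3.0, 4.0, 5.0, 5.5 or 6.0 h; adjusted p = 0.0521 to 0.135), after quantile normalization (0.0558) or centring (0.0764) and with other window edges (0.424).

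Bbc3 encodes PUMA, which like BIM binds all pro-survival members. Its 1 probe set read 0.027 at 0 h, 0.29, 0.16, 0.041 and 0.029 on early arrays, 0.10, 0.080, -0.20 and -0.21 on middle arrays, and 0, -0.12, -0.050 and -0.14 on late arrays. Every late array was below every early one, but late minus early was -0.21 ± 0.08 (adjusted p = 0.0976), and no window comparison passed. Late against early was called with other window edges (-0.27, adjusted p = 0.0304), and a smooth course (adjusted p = 0.0976) was called without the 0 h array (0.0479) or as a straight line (0.0324). Late against early, the windows of Bcl2, Bbc3, Pmaip1 and Bid did not overlap, 4 of 9 members, against 25.1% of all genes.

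**Figure D3:**
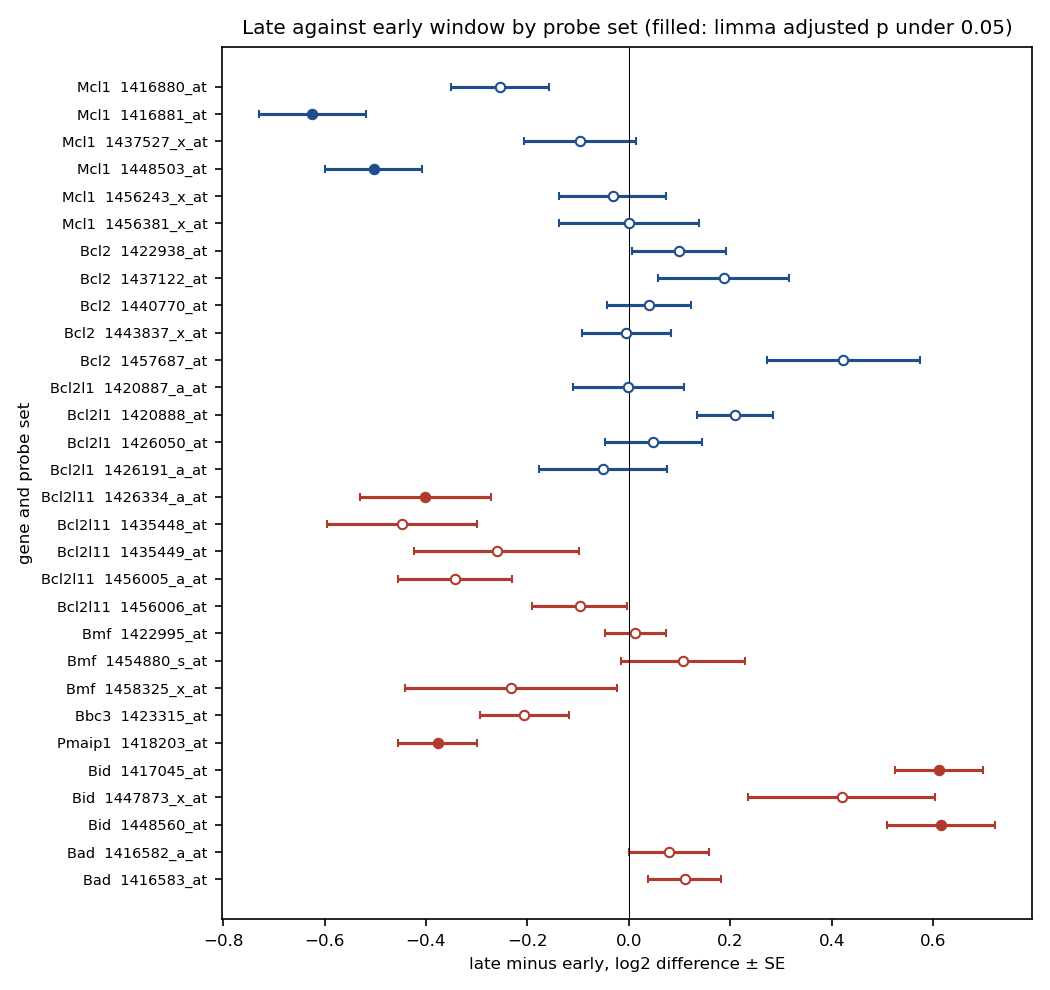
Log2 difference late minus early (horizontal axis, with SE as bars) for each of the 30 member probe sets, grouped by gene and coloured by class; filled points passed the adjusted p of 0.05 over all probe sets. The called points are 2 of Mcl1, 1 of Bcl2l11 and 1 of Pmaip1 on the negative side and 2 of Bid on the positive side. Points of Bcl2l1 and Bmf lie on both sides of 0, as do those of Bcl2, whose 1 negative point is at -0.0046.

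Set against 0 h, the 3 pro-survival genes and the 6 BH3-only genes had medians on opposite sides of 0. The pro-survival median over 0 h was 0.098, 0.077, 0.23 and 0.27 on early arrays, 0.041, 0.24, 0.033 and 0.075 on middle arrays, and 0.20, 0.11, 0.20 and 0.12 on late arrays. The BH3-only median was -0.053, -0.043, -0.083 and -0.097 on early arrays, -0.38, -0.29, -0.32 and -0.32 on middle arrays, and -0.22, -0.14, -0.25 and -0.17 on late arrays. All 12 arrays therefore gave a positive pro-survival and a negative BH3-only median, but every one is set against the same 0 h array, so these are not 12 separate observations. Each pro-survival median is also the value of 1 of 3 genes. At 0 h the 3 _x_at probe sets of Mcl1 read -0.37 to -0.33, and its other 3 read -0.065 to 0. Medians without the _x_at probe sets were not computed. The all-gene medians lay between -0.058 and 0.0043.

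Late minus 0 h, the differences of all 3 pro-survival genes were positive (median 0.18), though 0 were called and 0 had an unadjusted p under 0.05 in limma's fit or a called probe set. That median is the Mcl1 value, whose sign rests on its 3 _x_at probe sets (0.36 to 0.44). The other 3 Mcl1 probe sets had differences of -0.062 to -0.022. Of the 6 BH3-only genes, Bid alone was positive; the median was -0.16, and over all genes -0.0080. Late minus early, a comparison free of the 0 h array, the median was 0.051 for the pro-survival genes, with 2 of 3 positive, and -0.12 for the BH3-only genes, with 2 of 6 positive, against 0.019 for all genes. Late minus middle, both classes had positive medians, 0.079 and 0.093. The BH3-only genes did not move as a block: Bid rose late against early while Bcl2l11 and Pmaip1 fell.

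**Figure D4:**
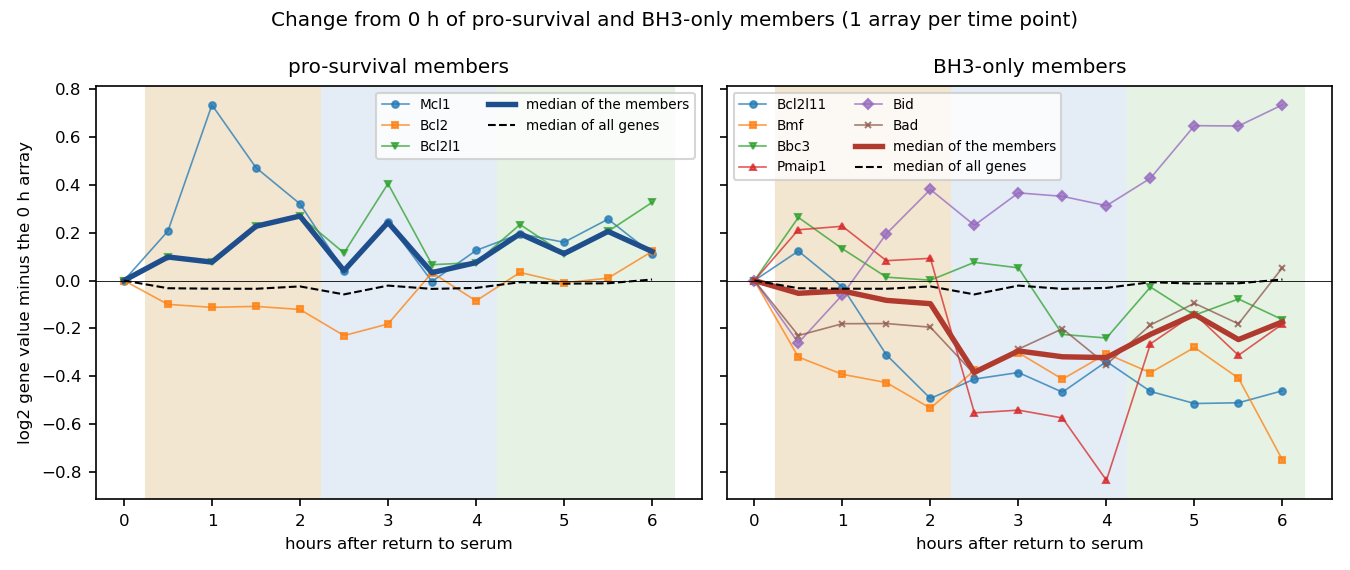
Change of the log2 ratio from the 0 h array (vertical axis) against hours after serum return, with the pro-survival members on the left and the BH3-only members on the right; thin lines are genes, thick lines the medians over each class and the dashed line the median over all genes. The pro-survival median stays above 0, between 0.033 and 0.27, and the BH3-only median below 0, between -0.38 and -0.043, while single genes such as Bid depart from it.

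Among other relatives of the family, Bnip3 and Bok differed more between late and 0 h than any member did between windows. Of 16 listed relatives 11 were measured, and late against early 3 rose and 1 fell, beside 11.7% higher and 9.29% lower among all genes. Bnip3, a mitochondrial protein with a BH3-like stretch that is known for its part in mitophagy, averaged -0.59 late and 0.64 early and fell by 1.23 ± 0.11 (SE; limma adjusted p = 9.25e-06); late against 0 h it fell by 1.65 ± 0.17 (1.26e-04). Bok, an effector-like relative, moved the other way, rising by 0.78 ± 0.11 late against early (2.52e-04) and by 1.20 ± 0.18 late against 0 h (8.53e-04). Bcl2l13 fell by 0.32 ± 0.06 middle against early (0.00281) and rose by 0.30 ± 0.06 late against middle (0.00755), so it too was lowest in the middle window, and both calls were lost with other window edges (0.114 and 0.183). Bik and Hrk, both BH3-only, rose late against early, Bik by 0.25 ± 0.08 (0.0457), a call lost without any 1 of 9 arrays (0.5, 1.0, 1.5, 2.0, 3.0, 4.5, 5.0, 5.5 or 6.0 h; 0.0553 to 0.143). The Bik call was also lost after centring (0.0531), with other window edges (0.0572) and with the median over probe sets (0.135). Bcl2l2, a pro-survival relative, rose middle against early.

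Downstream of the mitochondria, 14 of 16 listed apoptosome and caspase genes were measured. Late against early, 5 rose (Casp2, Cycs, Casp8, Htra2 and Endog) and 1 fell (Birc5), beside the same 11.7% and 9.29% of all genes. Late against middle, 5 rose, beside 10.3% of all genes, a share that moved with scaling as given above. Htra2, a mitochondrial protease that counters caspase inhibitors once released, rose by 0.70 ± 0.08 late against early (adjusted p = 6.22e-05), and Casp2, an initiator caspase, by 0.65 ± 0.10 (2.99e-04). Birc5, the caspase inhibitor family member survivin, fell by 0.52 ± 0.10 (0.00125). Apaf1, the scaffold of the apoptosome, fell by 0.64 ± 0.10 middle against early (6.89e-04) and rose by 0.47 ± 0.10 late against middle (0.00838), the second call lost with other window edges (0.321). Casp9, Aifm1 and Casp6 passed in other comparisons.

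Of 9 death receptor and adaptor genes 8 were measured, and late against 0 h 3 rose, beside 8.8% of all genes: Tnfrsf12a, the receptor of the cytokine TWEAK, by 1.42 ± 0.34 (adjusted p = 0.0104), Cflar, an inhibitor of initiator caspases, by 0.44 ± 0.13 (0.0316), and Tnfrsf10b by 0.32 ± 0.10 (0.0349). Without the 4.5, 5.0 or 5.5 h array the Cflar call was lost (0.0529 to 0.0618), and without the 4.5 or 6.0 h array that of Tnfrsf10b (0.0543 to 0.0574); both were lost after quantile normalization (0.127 and 0.132). Without the 4 middle arrays both were lost as well (0.0563 and 0.0613). The Cflar call was also lost with the median over probe sets (0.113). That of Tnfrsf10b was also lost with other window edges (0.153) and without the _s_at and _x_at probe sets (0.0931). Fas, the receptor upstream of Bid cleavage, fell by 0.21 ± 0.05 late against early (0.0117), lost with other window edges (0.102).

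Of 22 listed regulators of the members' transcription or protein turnover 20 were measured, and late against early 2 rose and 7 fell (11.7% higher and 9.29% lower among all genes). Ddit3, a stress factor known to induce Bcl2l11, fell by 1.07 ± 0.22 (adjusted p = 0.00292), and Srf, the serum response factor, by 0.62 ± 0.14 (0.00421). Both were highest in the early window: Ddit3 stood at -0.50 at 0 h, 0.89 early, 0.12 middle and -0.18 late, and Srf -0.54 at 0 h, 0.44 early and -0.18 late. Early against 0 h, Ddit3 rose by 1.39 ± 0.35 (0.0458) and Srf by 0.98 ± 0.21 (0.0282). The Ddit3 call was lost without any 1 of 8 arrays (1.5, 2.0, 3.0, 3.5, 4.0, 4.5, 5.0 or 5.5 h; 0.0523 to 0.0750) and the Srf call without the 1.5 h array (0.0553); both were lost after quantile normalization (0.267 and 0.158) and with other window edges (0.149 and 0.0671). That of Ddit3 was also lost with a variance trend and a robust prior (0.0553) and without the 4 middle arrays (0.0625). Pim3, a kinase that can phosphorylate BAD, rose by 0.41 ± 0.11 late against early (0.0162). The Pim3 call was lost without the 4.5 h array (0.0553) and without the _s_at and _x_at probe sets (0.0807). Late against 0 h, Pim3 rose by 0.92 ± 0.18 (0.00307) and Fbxw7, part of a ubiquitin ligase that can target MCL1, by 0.56 ± 0.14 (0.0148); the Fbxw7 call was lost after quantile normalization (0.0602). The others that fell late against early were Stat3, Foxo4, Mdm2, Huwe1 and Pim1, and E2f1 rose.

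Markers of differentiated muscle moved alongside the late window. In limma's fit 9 of 10 were called higher late than early, beside 11.7% higher and 9.29% lower among all genes. All 10 had positive differences, with a median of 0.37. Their mean log2 ratio was 0.18 to 0.33 on late arrays, against -0.30 to 0.040 on early arrays, with 0.032 at 0 h and -0.15 to 0.056 on middle arrays. Of 10 myoblast markers 0 were called late against early in limma's fit, where 3 had an unadjusted p under 0.05, and their means were -0.050 to 0.041 on late and -0.041 to 0.14 on early arrays. Of 7 fibroblast markers 2 were called lower late than early, beside 9.29% of all genes, and only 1 had a positive difference. The fibroblast means were -0.11 to -0.019 on late and 0.023 to 0.19 on early arrays. Of 9 blood and endothelial markers 0 were called in that comparison, and 0 had an unadjusted p under 0.05. Late minus 0 h, all 9 had positive differences, with a median of 0.23, and 1 was called higher, beside 8.8% of all genes. Early minus 0 h, all 9 were positive too (median 0.22), with 0 called and 3 at an unadjusted p under 0.05. Their mean was -0.24 at 0 h, -0.067 to 0.016 on early arrays and -0.032 to 0.030 on late arrays. The share of these shifts in the members' differences was not tested.

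As a description, the genes whose 13 values followed a member most closely were named for the 3 members with the smallest p for a smooth course, by Pearson's r over the 13 arrays among 18192 genes. For Bid they were Agpat5 (r = 0.976), Tars (0.968) and Sars (0.966). For Pmaip1 they were Nipbl (0.972), Ptpdc1 (0.968) and Uqcrc2 (0.952). For Bcl2l11 they were Tmem86a (0.954), Gpr20 (0.948) and Lpin1 (0.941). Agpat5 makes a phospholipid precursor, Tars and Sars charge transfer RNA with threonine and serine, Nipbl loads cohesin onto chromatin, Uqcrc2 is a core subunit of a respiratory complex, and Lpin1 is a phosphatidate phosphatase. All 13 arrays share 1 time order.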

How the data were processed

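RNA of 13 C2C12 samples, 0 to 6.0 h after the return to serum, was measured on Affymetrix arrays. The deposited values are linear ratios per probe set; RMA was used by the authors, per the submitters' processing notes, with no version stated, and the step that turned signals into ratios is not stated in the labels. Of 45101 probe sets, 64 array controls were left out. Of 45037 tested, 34945 name 1 gene. Ratios ran from 0.0199 to 18.98; 81.0% of probe sets had exactly 1 array at 1.

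Gene values are mean log2 ratios over probe sets. The 4 window means were fitted in limma 3.58.1 (R 4.3.3; lmFit, eBayes, two-sided), on 18193 genes and on probe sets, with Benjamini-Hochberg adjustment; for the lone 0 h array the spread of the other windows was assumed. A natural cubic spline with 4 degrees of freedom tested smooth courses. Figures used Python 3.11.15, pandas 2.3.3 and matplotlib 3.10.9. All members were named, and of each pathway list values were given for at most 4 called genes with the largest change. The members and lists were chosen with earlier results of these data known. On simulated data for 18193 genes, 85% of changes of 0.5 (log2) were recovered late against early, 92% middle against early, 88% late against middle, 66% early against 0 h and 50% late against 0 h. Smooth courses of that size were recovered in 33%. The simulation changed 200 otherwise flat genes with independent noise, as steps of a whole window or, for smooth courses, a straight rise. In the data many more genes were called and values drifted within windows, so these rates need not hold there. Alternatives were quantile normalization, median centring, a variance trend with a robust prior, other window edges (early 0.5 to 1.5 h, middle 2.0 to 3.5 h, late 4.0 to 6.0 h), other splines, probe sets ending in _at and _a_at only, and leaving out each array. The median over probe sets and a fit without the 4 middle arrays were added after the data were seen.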

Additional observations from a re-analysis of the deposited data

Results flagged for a closer look

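Of 27 sets of 4 arrays, 9 members in 3 windows, 2 held an array far from the other 3, where chance gives about 1 in 20. Bcl2l1 read 0.2152 at 3.0 h (log2 ratio), while the other middle arrays lay between -0.1228 and -0.07385. Pmaip1 read -0.6943 at 4.0 h, while the other middle arrays lay between -0.4344 and -0.4016, so its middle window was below the early one with or without that array.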

How the results depend on the processing

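No paired analysis was possible because the labels carry no replicate numbers and give 1 array per time point. No call of a member turned its direction under any alternative. Early against 0 h, 594 genes were called, but 45 after quantile normalization and 218 with other window edges; the probe set fit called 1 member, against 0. Middle against early, 4033 genes and 2 members were called, but 1507 and 1 with other window edges. Late against middle, 2240 genes and 2 members were called, but 1051 and 0 with other edges, and 1 member after quantile normalization or centring. Late against 0 h, 3402 genes and 3 members were called, but 1902 genes and 1 member after quantile normalization, 1 member with the median over probe sets and 0 without the 4 middle arrays. Smooth courses were called for 6911 genes and 5 members, but for 3704 and 3 as straight lines, and 3 with the median over probe sets. Leaving out 1 array gave 298 to 1431 genes early against 0 h (1431 without 0.5 h, 377 without 1.0 h, 298 without 1.5 h, 363 without 5.0 h) and 0 to 1 members (1 without 0.5 or 6.0 h). It gave 1 to 4 members middle against early (1 without 1.0 or 3.5 h, 4 without 2.0 h). Late against middle it gave 1105 to 2570 genes (1400 without 2.5 h, 1277 without 5.5 h, 1105 without 6.0 h) and 1 to 3 members. The cause of these moves was not tested. Without the 0 h array no comparison with 0 h can be made. Ratios hide the signal over background, so weak probe sets could not be told from strong ones.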
